A study of Mus musculus with 9 samples.

Results

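The genes described here are 38 genes of the endoplasmic reticulum (ER) stress response and the secretory pathway, taken by symbol from the 18094 genes of the count table. All 38 were found, and 37 of them were among the 15186 genes with enough counts to be tested. Whole uterus was taken from female mice at 13 weeks of age and its RNA was sequenced, 3 libraries to a group and 9 in all. Mice of the tamoxifen+primidone group had been given tamoxifen at 1 mg/kg on days 1 to 5 of life and then primidone at 2 mg/kg per day by intraperitoneal injection for 3 weeks from week 10. Mice of the tamoxifen group had the same neonatal tamoxifen and only vehicle from week 10. Control mice had the neonatal solvent without tamoxifen and the same later vehicle. Neonatal tamoxifen, a selective estrogen receptor modulator, is used in mice as a model of adenomyosis, the growth of endometrial glands and stroma into the muscle of the uterus. Primidone is an anticonvulsant known to block the ion channel TRPM3. The labels give no mouse strain. Each p-value sets a difference against the spread between libraries within groups of 3, estimated in the main test from all 9 libraries together.

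Proteins bound for secretion or for membranes fold in the ER. When unfolded proteins build up there, the sensors PERK (Eif2ak3), IRE1 (Ern1) and ATF6 act through the transcription factors ATF4, XBP1 and cleaved ATF6 to raise chaperones, disulfide isomerases and the machinery that removes misfolded proteins, and ATF4 with CHOP (Ddit3) raises genes of amino acid supply and cell death. Secretory cells such as uterine gland and lumen epithelium, fibroblasts laying down collagen and plasma cells carry much of this machinery at rest.

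Total counts ran from 36393120 to 39958443 a library. No marker of smooth muscle, epithelium or stroma was under 0.1 FPKM in all 9 libraries, and of the gland markers only Spink1 was. Bulk RNA cannot tell fewer cells of a type from less RNA per cell. Several marker lists moved with the groups. The summed FPKM (fragments per kilobase of gene and per unit of library depth, a level scaled for gene length and library size) of 10 liver genes was 175 to 205 in tamoxifen+primidone, 94.2 to 174 in tamoxifen and 55.2 to 73.0 in control libraries, and none of the 10 was near 0. That of the smooth muscle list was 2195 to 2822 in tamoxifen+primidone, 2258 to 2747 in tamoxifen and 2864 to 4673 in control libraries. That of the epithelial list was 1586 to 1857 in tamoxifen+primidone, 2046 to 2212 in tamoxifen and 1905 to 2078 in control libraries. That of the B and plasma cell list was 802 to 1408 in tamoxifen+primidone, 611 to 869 in tamoxifen and 722 to 742 in control libraries. The sum of the mitotic list was 12.2 to 42.5 in tamoxifen+primidone, 10.6 to 13.8 in tamoxifen and 33.6 to 45.3 in control libraries. The sum of the T and NK cell list was 16.2 to 21.6 in tamoxifen+primidone, 11.2 to 20.9 in tamoxifen and 7.97 to 9.58 in control libraries, and that of the endometrial gland list 6.96 to 9.29 in tamoxifen+primidone, 5.86 to 8.52 in tamoxifen and 4.12 to 5.23 in control libraries. For the sums of these 3 lists and of liver and smooth muscle, the tamoxifen and control libraries did not overlap. For the sums of the epithelial and the B and plasma cell lists they did. Of the 11 B and plasma cell genes 8 were found, and Jchain, at 565 to 1326 FPKM a library, made up most of their sum. Mzb1 of that list had 27.0 to 46.0 FPKM in tamoxifen and 16.5 to 19.6 FPKM in control libraries, while the other genes found overlapped. The oviduct gene Ovgp1 had 103, 24.4 and 48.3 FPKM in tamoxifen libraries, against at most 0.408 FPKM in tamoxifen+primidone and 14.4 FPKM in control libraries. The other ovary and oviduct markers found did not separate tamoxifen from control libraries. Foxj1 had 0.320, 0.107 and 0.545 FPKM in tamoxifen, 0.178, 0.549 and 0.244 FPKM in control and at most 0.0842 FPKM in tamoxifen+primidone libraries. Inha had 0.292 to 0.884 FPKM over all 9 libraries, and Amh at most 0.154 FPKM. The part of these cell types in the results was not tested.

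Some libraries stood apart in these genes. Tamoxifen+primidone replicate 3 was the highest of the 9 libraries for 27 of the 37 tested genes and for all 9 chaperones and co-chaperones, while over all tested genes it was the highest for 17.3%. Tamoxifen+primidone replicate 1 was the lowest of its group for 28 of the 37 genes, against 29.3% of all tested genes. Control replicate 2 was the lowest of the 9 libraries for 21 of the 37, against 12.5% of all tested genes. Together the 38 genes took 0.701%, 0.836% and 1.13% of counts in tamoxifen+primidone libraries 1, 2 and 3, while the tamoxifen libraries took 0.955%, 0.913% and 0.966% and the control libraries 0.650%, 0.613% and 0.723%. The tamoxifen libraries thus lay close together and above every control library, and the tamoxifen+primidone libraries spread from within the control range to above all others. In tamoxifen+primidone replicates 1, 2 and 3 the marker sums were 3718, 3431 and 2849 FPKM for stroma, 102, 97.9 and 78.4 FPKM for endothelium and 21.6, 18.9 and 16.2 FPKM for T and NK cells, each lowest in replicate 3, where the 38 genes took their largest share. The B and plasma cell sum was 1408, 802 and 1093 FPKM, the liver sum 182, 205 and 175 FPKM and the epithelial sum 1586, 1857 and 1795 FPKM in the same replicates. There the smooth muscle sum was 2822, 2195 and 2634 FPKM, the macrophage sum 297, 491 and 332 FPKM and the mitotic sum 12.2, 42.5 and 34.1 FPKM. Stroma genes differed among themselves, with 1608, 1270 and 923 FPKM for Dcn and 426, 467 and 473 FPKM for Col1a1. The part of cell makeup in the spread of that group was not tested.

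**Figure D1:**
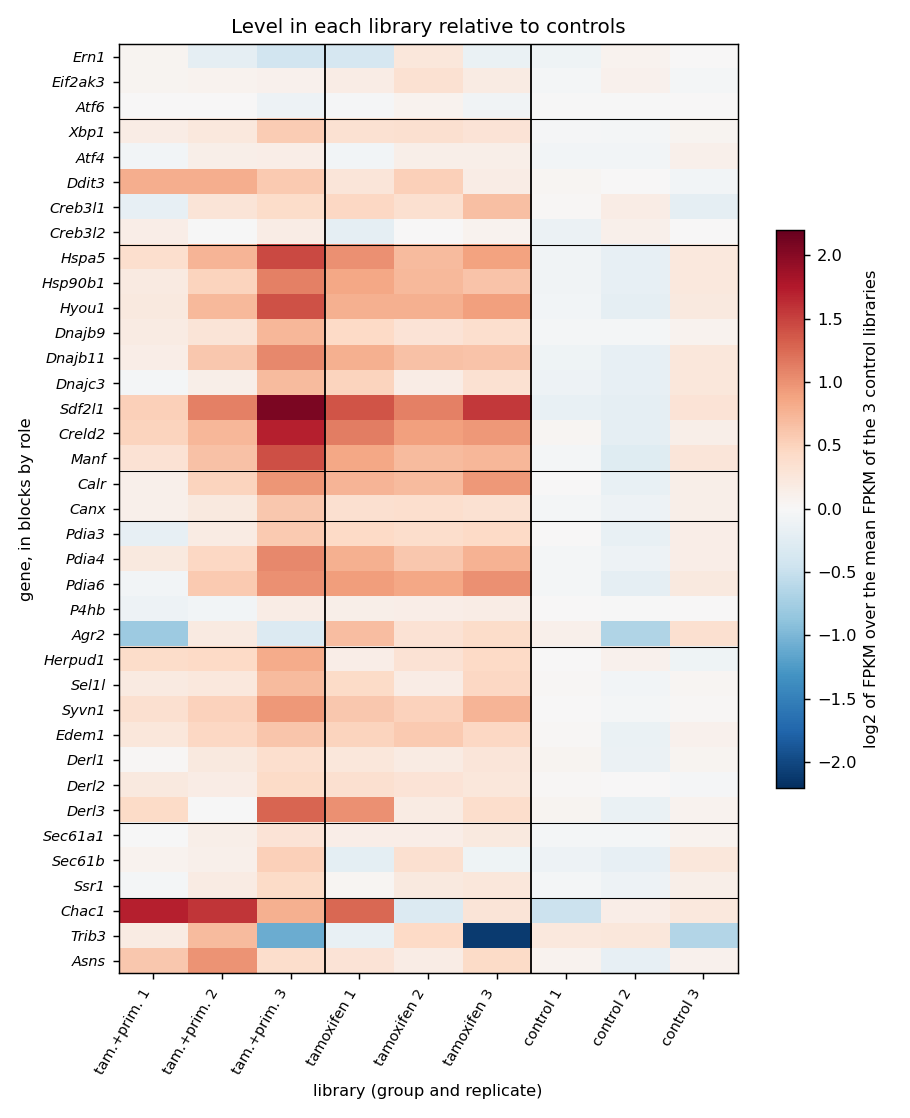
Level of each of the 37 tested genes (rows, in blocks by role) in each of the 9 libraries (columns), as log2 of its FPKM over the mean FPKM of the 3 control libraries. The chaperone block is red in all 3 tamoxifen libraries, with medians of 0.84, 0.70 and 0.72, and in tamoxifen+primidone libraries its median is 0.21, 0.64 and 1.40.

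The first question was how the uterus of tamoxifen mice differed from that of control mice. ER chaperones, disulfide isomerases and degradation genes had higher levels in tamoxifen libraries, by 1.10 to 2.57 times in the fitted counts, yet no gene of the 37 passed the test that spans all genes. The test was edgeR's quasi-likelihood test with Benjamini-Hochberg adjustment over 15186 genes and a threshold of 0.05. It called 0 of the 37 higher and 0 lower, where 0.573% of all tested genes were called higher and 0.961% lower. At an unadjusted p under 0.05, 22 of the 37 were higher and 0 lower, where 8.82% and 8.95% of all tested genes were. DESeq2 called 13 of the 37 higher and 0 lower, where it called 3.35% and 3.77% of the genes it tested. The 13 were Calr, Creb3l1, Creld2, Dnajb11, Edem1, Hsp90b1, Hspa5, Hyou1, Manf, Pdia4, Pdia6, Sdf2l1 and Syvn1. By limma on log2(FPKM + 1), 0 of the 37 were called. The 3 tamoxifen libraries lay wholly above the 3 control libraries for 27 of the 37 genes and wholly below for 0, where 13.1% of all tested genes lay above and 12.8% below. The log2 fold change of counts was above 0 for 33 of the 37 genes and for 50% of all tested genes, with a median of 0.34 over the 37 and 0.00018 over all tested genes.

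The number of edgeR calls moved with the tamoxifen+primidone libraries, which share the fit. Without tamoxifen+primidone replicate 3, 11 of the 37 passed, without replicate 1, 7 passed, and without replicate 2, 0 passed. Calls over all genes rose in the same fits, from 233 with all libraries to 276, 439 and 299. With only the 6 tamoxifen and control libraries in the fit, 15 of the 37 passed, and all 15 were higher in tamoxifen libraries. Over all genes, 546 were then called, 226 of them higher.

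The chaperones and co-chaperones, which bind unfolded chains and drive the folding cycle, had the largest differences between tamoxifen and control libraries. Hspa5 encodes BiP, the main chaperone of the ER, which also holds the sensors inactive. It had 259.6, 340.1 and 549.5 FPKM in tamoxifen+primidone libraries, 403, 327 and 374 FPKM in tamoxifen libraries and 192, 177 and 236 FPKM in control libraries. Every tamoxifen library was above every control library, and the tamoxifen+primidone libraries reached both below and above the tamoxifen ones. The log2 fold change of counts between tamoxifen and control was 0.86 ± 0.26 (approximate SE), or 1.82-fold, with an edgeR adjusted p of 0.129. The DESeq2 adjusted p was 0.00718.

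Sdf2l1, an ER-resident partner of the BiP co-chaperones, had the largest fold change of the 37. It had 29.1, 43.9 and 85.2 FPKM in tamoxifen+primidone libraries, 53.3, 44.0 and 59.99 FPKM in tamoxifen libraries and 18.2, 17.8 and 25.0 FPKM in control libraries. Again the tamoxifen and control libraries did not overlap. The fold change between tamoxifen and control was 2.57 (log2 1.36 ± 0.37, edgeR adjusted p = 0.112). Creld2, an ER protein induced by stress, averaged 53.8 ± 4.50 FPKM in tamoxifen and 27.0 ± 3.08 FPKM in control libraries (SD, n = 3 each), a log2 fold change of 0.99 ± 0.29. Hyou1, which recharges BiP with nucleotide, averaged 47.3 ± 2.29 FPKM in tamoxifen and 26.8 ± 4.03 FPKM in control libraries. Manf, a secreted survival factor that binds BiP, averaged 237 ± 14.0 FPKM in tamoxifen and 139.6 ± 25.8 FPKM in control libraries. Hsp90b1, the ER form of HSP90, and the J-domain co-chaperones Dnajb11, Dnajb9 and Dnajc3 had log2 fold changes of 0.73, 0.68, 0.37 and 0.33. Dnajc3 was the single gene of this group of 9 whose tamoxifen and control libraries overlapped and whose unadjusted p was above 0.05, and the median log2 fold change of the group was 0.75.

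**Figure D2:**
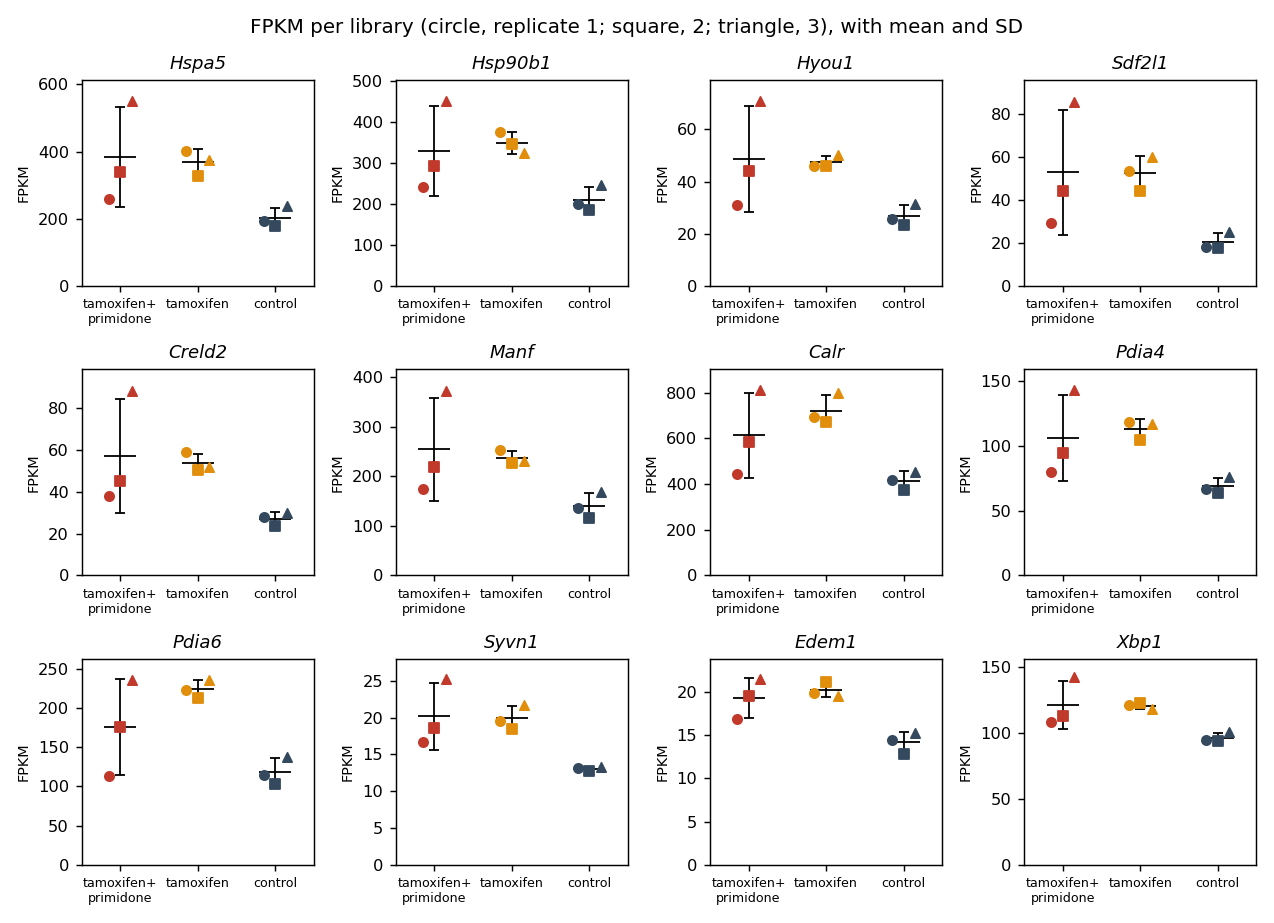
FPKM of 12 genes in each library, with tamoxifen+primidone left, tamoxifen in the middle and control right, and with the mean and SD of 3 libraries as a bar. In each panel the 3 tamoxifen points lie above the 3 control points, and tamoxifen+primidone replicate 3 (triangle) is its group's highest.

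Promoter sequences of 31 of the 38 genes were given in a RefSeq table (build GRCm38.p6, 250 bases before to 50 bases after the start of each gene), and a motif known from this pathway was found in 11 of them. The ER stress element (ERSE) is read here as CCAAT, then 9 bases of any kind, then CCACG, on either strand. It was present in 9 of the 31 genes, or 29%, and in 0.137% of the 27025 genes with a promoter in the table. ERSE-II, read as ATTGG, then 1 base of any kind, then CCACG, was present in Dnajb11 and Herpud1, or 6.45% of the 31, and in 0.0444% of all genes with a promoter. Both elements are known from promoters of this pathway, so their high share here was likely in advance and is no result of these libraries. The letters TGACGTGG, a form of the unfolded protein response element, and TGATGNAAT, a form of the amino acid response element, were in 0 of the 31, and in 0.676% and 0.965% of all promoters. No match overlapped a match of another motif. The 7 windows printed here are shown because they span the range of differences among genes that hold a match, from Creld2 to Herpud1. Capitals mark the fixed letters of the match, and each sequence runs 5′ to 3′ in the direction of its gene.
Creld2: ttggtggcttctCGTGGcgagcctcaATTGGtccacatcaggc
Pdia6: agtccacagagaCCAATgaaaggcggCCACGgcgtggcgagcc
Hspa5: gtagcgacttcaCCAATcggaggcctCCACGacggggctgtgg
Calr: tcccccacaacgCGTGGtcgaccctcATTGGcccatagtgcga
Syvn1: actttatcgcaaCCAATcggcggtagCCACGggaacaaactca
Dnajc3: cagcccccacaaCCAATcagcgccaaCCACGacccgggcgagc
Herpud1: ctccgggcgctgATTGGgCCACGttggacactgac
The windows lie at chr15:88819508-88819550 on the plus strand for Creld2, chr12:17266479-17266521 plus for Pdia6, chr2:34772013-34772055 plus for Hspa5 and chr8:84847063-84847105 minus for Calr. Those of Syvn1, Dnajc3 and Herpud1 lie on the plus strand at chr19:6046520-6046562, chr14:118937815-118937857 and chr8:94386365-94386399. In Creld2 and Calr the element ran opposite to the gene, so CGTGG comes first. Matches began between 212 bases before the start, in Hsp90b1, which held 2, and 7 bases after it, in Dnajb11.

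Genes with ERSE or ERSE-II had a median log2 fold change between tamoxifen and control of 0.68 over 11 genes, all above 0. The 20 genes with a promoter and no match had a median of 0.31, with 17 above 0. Sdf2l1, with the largest fold change, was among those 20, which says only that these letters are not in its window. The difference between these subsets was not tested, and a match describes letters, not binding.

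**Figure D3:**
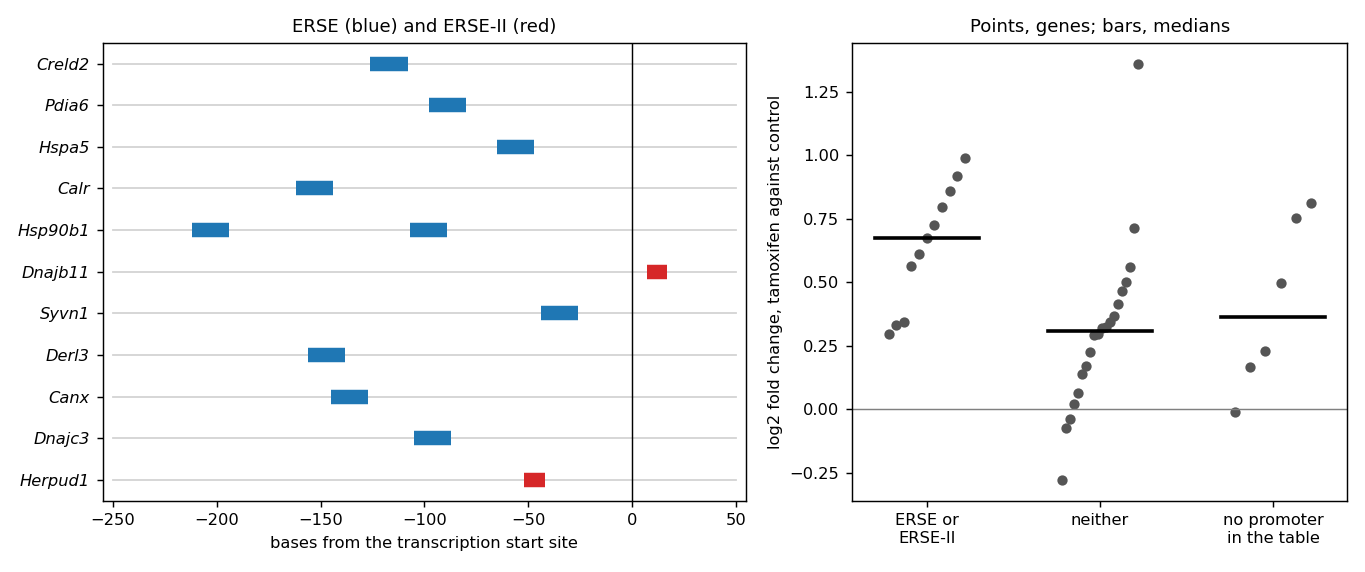
Left, place of the ERSE (blue) and ERSE-II (red) matches in the promoter windows of 11 genes, in bases from the transcription start. Right, log2 fold change of tamoxifen against control for 11 genes with a match (median 0.68), 20 with a promoter and no match (0.31) and 6 tested genes without a promoter in the table (0.36), where points are genes and bars medians.

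Calr and Canx, the lectin chaperones calreticulin and calnexin, hold sugar-bearing chains until they have folded. Calr, with Hspa5 and P4hb among the 3 genes of the set with the highest mean FPKM, had 445, 582 and 814 FPKM in tamoxifen+primidone libraries, 694, 672 and 799 FPKM in tamoxifen libraries and 417, 372 and 453 FPKM in control libraries. The tamoxifen and control libraries did not overlap, and the fold change was 1.74 (log2 0.80 ± 0.20, edgeR adjusted p = 0.0873). Canx averaged 94.4 ± 1.26 FPKM in tamoxifen and 74.1 ± 6.55 FPKM in control libraries (SD, n = 3 each).

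The disulfide isomerases, which make and shuffle disulfide bonds, were unequal among themselves. Pdia6 had 113, 176 and 236 FPKM in tamoxifen+primidone libraries, 223, 213 and 236 FPKM in tamoxifen libraries and 115, 103 and 137 FPKM in control libraries. Pdia4 had 80.2, 94.5 and 144 FPKM in tamoxifen+primidone libraries, 118, 104 and 117 FPKM in tamoxifen libraries and 66.7, 63.6 and 76.1 FPKM in control libraries. In both, tamoxifen and control libraries did not overlap, with log2 fold changes of 0.92 ± 0.24 (edgeR adjusted p = 0.0942) for Pdia6 and 0.71 ± 0.20 (edgeR adjusted p = 0.107) for Pdia4. P4hb, which besides its isomerase role is the beta subunit of collagen prolyl 4-hydroxylase, had 282, 292 and 339 FPKM in tamoxifen+primidone libraries, 330.3, 333 and 340.2 FPKM in tamoxifen libraries and 304, 301 and 304 FPKM in control libraries. Its log2 fold change between tamoxifen and control was 0.14 ± 0.10, with an edgeR adjusted p of 0.489. Pdia3, the partner of the lectin chaperones, had a log2 fold change of 0.41 ± 0.18.

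The ER-associated degradation genes carry misfolded proteins back to the cytosol to be destroyed. Edem1, a lectin that picks chains for removal, had the smallest p of the 37 genes between tamoxifen and control. It had 16.9, 19.5 and 21.6 FPKM in tamoxifen+primidone libraries, 19.9, 21.1 and 19.6 FPKM in tamoxifen libraries and 14.5, 12.9 and 15.2 FPKM in control libraries. No tamoxifen library reached down to a control library, and the log2 fold change was 0.50 ± 0.11 with an edgeR adjusted p of 0.0505. Syvn1, the HRD1 ubiquitin ligase of the pathway, had 16.7, 18.6 and 25.3 FPKM in tamoxifen+primidone libraries, 19.6, 18.5 and 21.8 FPKM in tamoxifen libraries and 13.1, 12.7 and 13.3 FPKM in control libraries. Its tamoxifen libraries were likewise all above its control libraries, with a log2 fold change of 0.61 ± 0.15 and an edgeR adjusted p of 0.0754. Sel1l, the adaptor of HRD1, and the channel components Derl1, Derl2 and Derl3 had log2 fold changes of 0.34, 0.23, 0.30 and 0.57, and in each the libraries of the 2 groups did not overlap.

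The sensors showed small differences. Ern1 had 15.8, 13.3 and 11.4 FPKM in tamoxifen+primidone libraries, 11.7, 17.99 and 13.7 FPKM in tamoxifen libraries and 14.2, 16.1 and 15.3 FPKM in control libraries. Atf6 had 10.5, 10.5 and 9.58 FPKM in tamoxifen+primidone libraries, 10.2, 10.9 and 9.89 FPKM in tamoxifen libraries and 10.4, 10.3 and 10.5 FPKM in control libraries. The groups overlapped in both genes, with log2 fold changes between tamoxifen and control of -0.07 ± 0.15 (edgeR adjusted p = 0.845) and -0.0098 ± 0.070 (edgeR adjusted p = 0.961), and 95% intervals of -0.41 to 0.26 and -0.16 to 0.15. Both values changed sign when single libraries were left out. Eif2ak3 had 9.94, 10.0 and 10.2 FPKM in tamoxifen+primidone libraries, 10.7, 11.97 and 10.8 FPKM in tamoxifen libraries and 9.23, 10.2 and 9.21 FPKM in control libraries. All 3 of its tamoxifen libraries were above the other 6, with a log2 fold change against control of 0.22 ± 0.076 and an edgeR adjusted p of 0.161. Ern2, the IRE1 form of gut and airway epithelium, had 0 to 4 counts a library and at most 0.036 FPKM, and was too low to test.

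Among the transcription factors, Xbp1 had 108, 113 and 142 FPKM in tamoxifen+primidone libraries, 121, 123 and 118 FPKM in tamoxifen libraries and 94.2, 93.9 and 101 FPKM in control libraries. Both tamoxifen-dosed groups lay above the control libraries, and the log2 fold change between tamoxifen and control was 0.32 ± 0.11 with an edgeR adjusted p of 0.168. Gene counts do not show the splicing of Xbp1 that IRE1 performs, nor the translation of Atf4. Atf4 had 111, 126 and 128 FPKM in tamoxifen+primidone libraries, 109.97, 126 and 125 FPKM in tamoxifen libraries and 109.7, 110.4 and 125 FPKM in control libraries. The 3 groups of Atf4 overlapped, with a log2 fold change between tamoxifen and control of 0.06 ± 0.096 (edgeR adjusted p = 0.786). Creb3l1, an ER-bound factor known in mice for driving collagen production in bone, had 38.0, 52.8 and 57.1 FPKM in tamoxifen+primidone libraries, 59.4, 55.4 and 68.4 FPKM in tamoxifen libraries and 44.0, 48.2 and 37.5 FPKM in control libraries. Its tamoxifen libraries were all above its control libraries, with a log2 fold change of 0.50 ± 0.16 and an edgeR adjusted p of 0.144. Creb3l2, its relative, had a log2 fold change of -0.04 ± 0.096.

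The translocon genes Sec61a1, Sec61b and Ssr1, which thread new chains into the ER, had log2 fold changes between tamoxifen and control of 0.16, 0.02 and 0.17, and 0 of 3 reached an unadjusted p under 0.05. Among known targets of ATF4 and CHOP, the glutathione-degrading enzyme Chac1, the pseudokinase Trib3 and asparagine synthetase Asns had log2 fold changes of 0.56 ± 0.47, -0.28 ± 0.60 and 0.29 ± 0.17. Chac1 and Trib3 were low, at 0.330 to 2.31 FPKM in all 9 libraries, and their 95% intervals were wide, at -0.47 to 1.60 and -1.63 to 1.07.

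**Figure D4:**
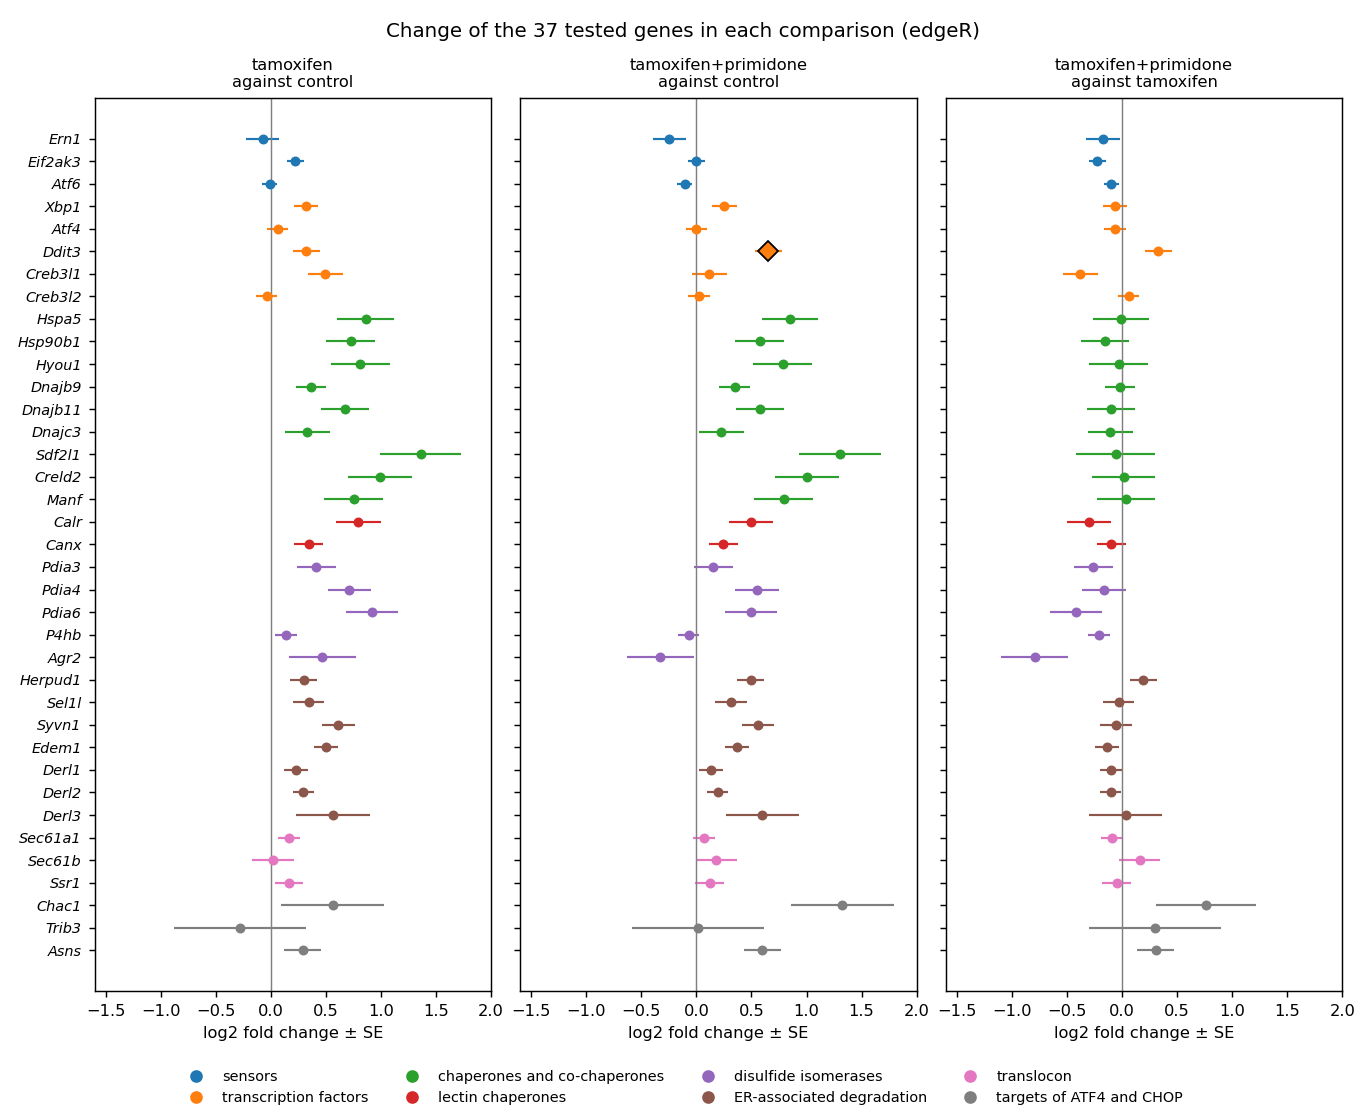
Log2 fold change of counts (points) with its approximate SE (bars) for the 37 tested genes, in 3 panels: tamoxifen against control, tamoxifen+primidone against control, and tamoxifen+primidone against tamoxifen. The diamond marks the single gene past the edgeR threshold, Ddit3 at 0.65 in tamoxifen+primidone against control.

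The second question was what primidone added in mice that had all had tamoxifen. No gene of the 37 passed the test between tamoxifen+primidone and tamoxifen, and the fold changes of the chaperones centred near 0 with wide intervals. The edgeR test called 0 of the 37 in either direction, where 0% of all tested genes were called higher and 0.0132% lower. At an unadjusted p under 0.05, 1 of the 37 was higher and 3 lower, where 6.3% and 7.51% of all tested genes were. DESeq2 called 0 of the 37 in either direction, where it called 1.38% of genes higher and 2.4% lower, and limma on log2(FPKM + 1) called 0. The log2 fold change was below 0 for 27 of the 37 and for 47.2% of all tested genes, with a median of -0.07 over the 37 and 0.015 over all tested genes.

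The group medians of this comparison were -0.03 for the 9 chaperones and co-chaperones, -0.26 for the 5 disulfide isomerases, all of them below 0, and 0.31 for the 3 targets of ATF4 and CHOP, all of them above 0. For Hspa5 the log2 fold change was -0.0095 with a 95% interval of -0.58 to 0.56, so these libraries do not exclude a difference within it. For Sdf2l1 the interval was -0.88 to 0.77. The spread among tamoxifen+primidone libraries was larger than among tamoxifen libraries in these genes, with an SD for Hspa5 of 149.7 FPKM in tamoxifen+primidone and 38.3 FPKM in tamoxifen libraries.

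The tamoxifen+primidone and tamoxifen libraries did not overlap for 3 of the 37 genes. Ddit3 was wholly higher, as were 14.7% of all tested genes, and Eif2ak3 and Agr2 were wholly lower, as were 5.1%. Agr2, a disulfide isomerase of mucus-secreting epithelium, had 44.4, 88.4 and 62.4 FPKM in tamoxifen+primidone libraries, 123, 96.7 and 102 FPKM in tamoxifen libraries and 83.5, 49.1 and 99.1 FPKM in control libraries. Its control libraries spanned most of that range, and the log2 fold change between tamoxifen+primidone and tamoxifen was -0.79 ± 0.30 with an edgeR adjusted p of 0.302. The epithelial marker sum was also lower in tamoxifen+primidone libraries, at 1586 to 1857 FPKM against 2046 to 2212 FPKM in tamoxifen libraries, and its part in the Agr2 values was not tested. The log2 fold change of Eif2ak3 was -0.23 ± 0.076 with an edgeR adjusted p of 0.233. That of Creb3l1 was -0.38 ± 0.16 with an edgeR adjusted p of 0.329, and that of P4hb was -0.21 ± 0.097 with an edgeR adjusted p of 0.379.

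The last comparison set tamoxifen+primidone against control libraries. It shares the control libraries with the first comparison and the tamoxifen+primidone libraries with the second. Ddit3, which encodes the stress-induced transcription factor CHOP, was the single gene of the 37 that rose by the edgeR test. That test called 1 of the 37 higher and 0 lower, where 2.14% of all tested genes were called higher and 3.21% lower, so the count is near the general rate. At an unadjusted p under 0.05, 17 of the 37 were higher and 0 lower, where 11.3% and 11.9% of all tested genes were. DESeq2 called 12 of the 37 higher and 0 lower, where it called 5.72% and 6.32% of the genes it tested. The 12 were Asns, Chac1, Creld2, Ddit3, Edem1, Herpud1, Hspa5, Hyou1, Manf, Pdia4, Sdf2l1 and Syvn1. By limma on log2(FPKM + 1), 5 of the 37 were called. Over all genes limma also called more higher than edgeR did, by counts given in the closing section. Libraries of the 2 groups did not overlap for 15 of the 37 genes, all of them higher in tamoxifen+primidone, where 21.3% of all tested genes were wholly higher and 9.81% wholly lower. The log2 fold change was above 0 for 32 of the 37 and for 51.7% of all tested genes, with a median of 0.31 over the 37 and 0.012 over all tested genes.

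Ddit3 had 8.12, 8.11 and 6.98 FPKM in tamoxifen+primidone libraries, 5.62, 6.71 and 5.24 FPKM in tamoxifen libraries and 4.81, 4.70 and 4.50 FPKM in control libraries. The 3 groups did not overlap with one another, and tamoxifen+primidone replicate 3, the highest library for the chaperones, was the lowest of its group here. The fold change between tamoxifen+primidone and control was 1.57 (log2 0.65 ± 0.12, edgeR adjusted p = 0.0202). It was 1.26 between tamoxifen+primidone and tamoxifen (log2 0.33 ± 0.12, edgeR adjusted p = 0.279) and 1.25 between tamoxifen and control (log2 0.32 ± 0.12, edgeR adjusted p = 0.21). Leaving out tamoxifen+primidone replicate 2 or control replicate 1, 2 or 3 gave edgeR adjusted p-values of 0.0592, 0.0679, 0.0575 and 0.0737, each above the threshold, with log2 fold changes of 0.62 to 0.68. In the GENCODE vM21 annotation an exon of Ddit3 overlaps one of Mars1, a methionyl-tRNA synthetase gene on the other strand, by 68 bases, and without a stated strand setting reads there cannot be told apart. Mars1 itself had a log2 fold change of 0.29 ± 0.11 between tamoxifen+primidone and control, with an edgeR adjusted p of 0.142.

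Asns, which ATF4 is known to drive, had 6.91, 9.05 and 6.01 FPKM in tamoxifen+primidone libraries, 5.64, 5.15 and 6.10 FPKM in tamoxifen libraries and 4.81, 4.03 and 4.90 FPKM in control libraries. All 3 tamoxifen+primidone libraries exceeded the control ones, and the log2 fold change was 0.60 ± 0.17 with an edgeR adjusted p of 0.0654. Chac1 had 1.76, 1.61 and 0.930 FPKM in tamoxifen+primidone libraries, 1.29, 0.438 and 0.656 FPKM in tamoxifen libraries and 0.391, 0.595 and 0.634 FPKM in control libraries. Its tamoxifen+primidone libraries were also all above the control ones, and the fold change of 2.51 (log2 1.33 ± 0.47) had an edgeR adjusted p of 0.122. Herpud1, a membrane protein that gathers the HRD1 complex, had 49.4, 50.5 and 66.2 FPKM in tamoxifen+primidone libraries, 41.5, 46.4 and 50.4 FPKM in tamoxifen libraries and 37.5, 39.9 and 34.9 FPKM in control libraries. Its log2 fold change between tamoxifen+primidone and control was 0.49 ± 0.13 with an edgeR adjusted p of 0.0503, and between tamoxifen and control 0.30 ± 0.13 with an edgeR adjusted p of 0.25.

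**Figure D5:**
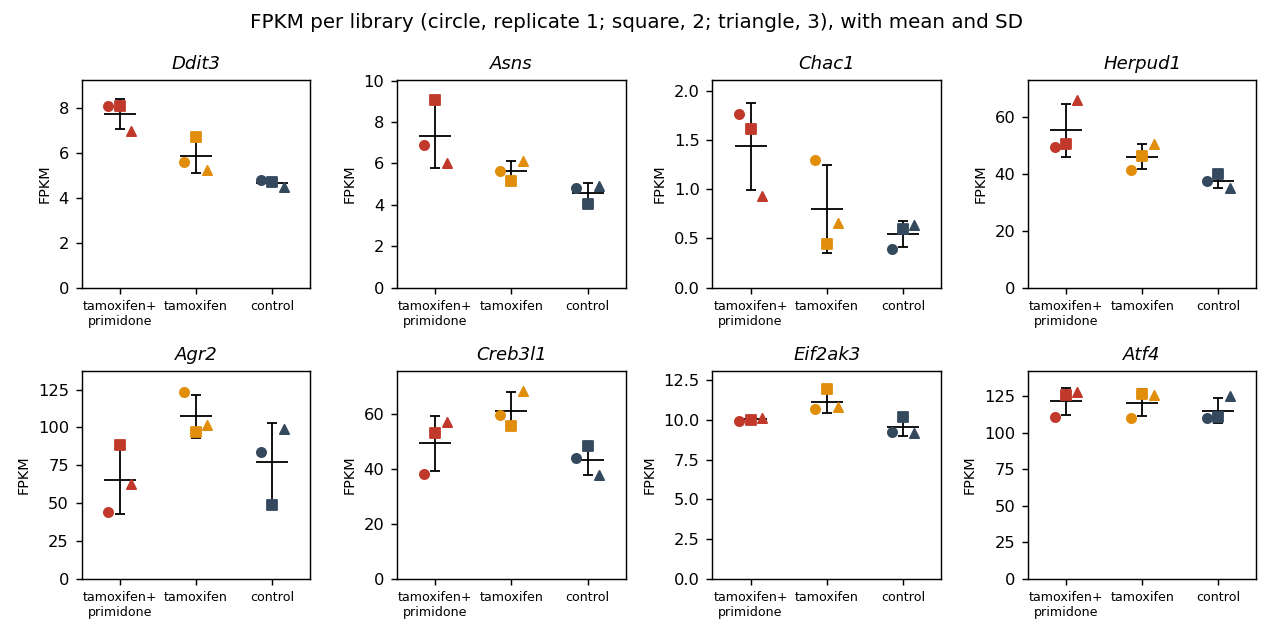
FPKM of 8 genes in each library, with tamoxifen+primidone left, tamoxifen in the middle and control right, and with the mean and SD of 3 libraries as a bar. The 3 groups of Ddit3 do not overlap, at 6.98 to 8.12 FPKM in tamoxifen+primidone, 5.24 to 6.71 FPKM in tamoxifen and 4.50 to 4.81 FPKM in control libraries, while those of Atf4 do.

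The chaperones and co-chaperones had a median log2 fold change of 0.78 between tamoxifen+primidone and control, with 9 of 9 above 0 and 8 of 9 at an unadjusted p under 0.05. Hspa5, Sdf2l1 and Creld2 had log2 fold changes of 0.85 ± 0.26, 1.31 ± 0.37 and 1.01 ± 0.29, with edgeR adjusted p-values of 0.0874, 0.0792 and 0.0821. Syvn1 and Edem1 had 0.56 ± 0.15 and 0.37 ± 0.11, with edgeR adjusted p-values of 0.0568 and 0.0753. The disulfide isomerases had a median of 0.15, with P4hb and Agr2 below 0. These counts depended on tamoxifen+primidone replicate 1, without which 11 of the 37 passed the test, all higher. Calr, Creld2, Dnajb11, Edem1, Herpud1, Hspa5, Hyou1, Pdia6, Sdf2l1 and Syvn1 then joined Ddit3. The count over all genes moved too, from 122 to 800 over the fits that left out 1 library each. The liver list moved with this comparison, with 9 of its 10 genes called higher, and 4 of 10 were called higher between tamoxifen and control. Alb had 48.2, 48.2 and 46.2 FPKM in tamoxifen+primidone, 29.4, 27.1 and 48.2 FPKM in tamoxifen and 15.3, 14.9 and 14.5 FPKM in control libraries, and the part of any liver RNA in these results was not tested.

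Beyond the 38 genes, 216 further listed genes of the same pathways were found and 209 were tested. Some listed genes were not found under the symbols used. Between tamoxifen and control edgeR called 3 of the 209 higher and 0 lower, where 0.573% and 0.961% of all tested genes were called, and the median log2 fold change of the 209 was 0.11. P4ha1 and P4ha2, which encode alpha subunits that join P4hb in collagen prolyl 4-hydroxylase, averaged 17.7 ± 2.34 and 14.2 ± 1.64 FPKM in tamoxifen and 8.69 ± 0.338 and 7.38 ± 0.269 FPKM in control libraries (SD, n = 3 each). Both rose, with log2 fold changes of 1.02 ± 0.13 (edgeR adjusted p = 0.00902) and 0.94 ± 0.15 (edgeR adjusted p = 0.0236). P4ha3, a further alpha subunit, was not called higher. It averaged 5.93 ± 2.36 FPKM in tamoxifen+primidone, 10.7 ± 1.75 FPKM in tamoxifen and 11.7 ± 3.84 FPKM in control libraries. Atf3, a stress-induced transcription factor downstream of ATF4, had 5.90, 6.26 and 6.14 FPKM in tamoxifen+primidone libraries, 5.08, 5.80 and 5.55 FPKM in tamoxifen libraries and 3.09, 2.96 and 3.83 FPKM in control libraries. It rose between tamoxifen and control (log2 0.73 ± 0.15, edgeR adjusted p = 0.044) and between tamoxifen+primidone and control (log2 0.81 ± 0.15, edgeR adjusted p = 0.0172).

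Between tamoxifen+primidone and control edgeR called 8 of the 209 higher and 3 lower, where 2.14% and 3.21% of all tested genes were called. Atf3, P4ha1 and P4ha2 rose again, P4ha1 and P4ha2 by log2 fold changes of 0.85 ± 0.13 and 0.90 ± 0.15. The others that rose were Phgdh, the first enzyme of serine synthesis (1.01 ± 0.19, edgeR adjusted p = 0.0203), the collagen chaperone Serpinh1 (0.69 ± 0.17, edgeR adjusted p = 0.0477), Kdelr3, a receptor that returns escaped chaperones (0.58 ± 0.14, edgeR adjusted p = 0.0399), Atf5, a relative of Atf4 (0.44 ± 0.099, edgeR adjusted p = 0.0351), and the degradation enzyme Ube2g2 (0.40 ± 0.10, edgeR adjusted p = 0.0466). Phgdh had 12.3, 13.5 and 11.1 FPKM in tamoxifen+primidone libraries, 6.97, 4.21 and 6.25 FPKM in tamoxifen libraries and 5.14, 5.48 and 6.70 FPKM in control libraries. Its tamoxifen+primidone libraries stood above all 6 others, and between tamoxifen+primidone and tamoxifen its log2 fold change was 1.01 ± 0.19 with an edgeR adjusted p of 0.0877. The lectin Erlec1 (-0.48 ± 0.086, edgeR adjusted p = 0.0167), the stress gene Ddit4 (-0.76 ± 0.14, edgeR adjusted p = 0.017) and the lipoprotein receptor Vldlr (-0.59 ± 0.14, edgeR adjusted p = 0.0426) fell.

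Between tamoxifen+primidone and tamoxifen edgeR called 0 of the 209 in either direction, where 0% and 0.0132% of all tested genes were called. At an unadjusted p under 0.05, 5 of the 209 were higher and 23 lower, where 6.3% and 7.51% of all tested genes were. The log2 fold change was below 0 for 47.2% of all tested genes and 128 of the 209, whose median was -0.05. Fold changes were below 0 for 25 of 31 further degradation genes (median -0.09) and for 24 of 37 further folding genes. A further list joined the oligosaccharyltransferase, which adds sugars to chains entering the ER, with enzymes that make its sugar donor. Of its 19 genes, 17 were below 0 (median -0.09). Counts were 15 of 22 for retrieval to the ER, 14 of 25 for the translocon and 13 of 30 for ER export. They were 8 of 16 for sensors and factors, 3 of 7 for stress kinases and phosphatases and 9 of 22 for amino acid genes.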

How the data were processed

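RNA of whole uterus was sequenced in 9 libraries, grouped by their labels into 3 groups of 3. The genome build was GRCm39 and the tools named were HISAT2, HTSeq, DESeq2 and R 3.2.0, per the submitters' processing notes. No annotation or strand setting is given in the sources used here. Counts of reads per gene were deposited as whole numbers without normalization, and FPKM were deposited as values scaled by library size and gene length. Levels are the deposited FPKM, with SD over 3 libraries. Differences come from the deposited counts, fitted over all 9 libraries in R 4.3.3 with edgeR 4.0.16 (quasi-likelihood, TMM, low-count filter by group, robust dispersion, two-sided, Benjamini-Hochberg over 15186 genes). SE is the absolute log2 fold change over the square root of F. DESeq2 1.42.0 and limma 3.58.1 (on log2(FPKM + 1), genes at 0.5 FPKM or more in 3 libraries) were alternatives, with other scalings, filters, a pseudocount of 0.1, left-out libraries and a replicate block. The edgeR script was tested on simulated data. Replicates differed beyond counting noise (chi-square per degree of freedom 17.9 to 71.3), so none was counted as a repeat. Genes given in full are those past the threshold, enough of smallest p to make 5 a comparison, the sensors, Xbp1, Atf4, Ddit3, Hspa5, Agr2, Creb3l1, Ern2 and the 3 of highest mean FPKM; Sdf2l1, Chac1, and the means of other genes were added after their values were seen. The 38 genes and all lists were chosen with earlier results of these data known. GENCODE vM21 and RefSeq promoters are of build GRCm38, so they served for names, exon overlaps and motif matches only. Gene overlap was also found for Syvn1 and Mrpl49 (91 bases), Pdia6 and Atp6v1c2 (50), Manf and Dcaf1 (146) and Derl2 and Mis12 (231), where reads cannot be told apart.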

Additional observations from a re-analysis of the deposited data

How the results depend on the processing

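Between tamoxifen and control, 0 of the 37 genes were called as reported, 1 without the low-count filter, 13 by DESeq2, 15 with only the 6 libraries compared and 3 with the replicate block, and 0 under upper-quartile or RLE scaling and 3 forms of limma. The counts over all genes were 233 as reported, 1112 by DESeq2, 108 by limma without a filter, 546 with only the 6 libraries and 317 with the block. Between tamoxifen+primidone and tamoxifen, 0 of the 37 were called under every setting run, and all genes gave 2 as reported, 9 under RLE, 21 without the filter, 578 by DESeq2, 1 and 0 by limma with pseudocounts of 1 and 0.1, 0 by limma without a filter and 53 with the block. Between tamoxifen+primidone and control, 1 of the 37 was called as reported, 3 under upper-quartile scaling, 2 under RLE, 2 without the filter, 12 by DESeq2, 5 by limma on log2(FPKM + 1) and 4 with the block. All genes gave 812 as reported and 1882 by DESeq2, with 325 higher and 487 lower as reported, 431 and 400 under upper-quartile scaling and 612 and 309 by limma. Leaving out each library gave 0 to 11 of the 37 and 22 to 439 of all genes between tamoxifen and control, 0 to 0 and 0 to 85 between tamoxifen+primidone and tamoxifen, and 0 to 11 and 122 to 800 between tamoxifen+primidone and control. Between tamoxifen and control, the log2 fold change of Ern1 ran from -0.25 to 0.049 and changed sign without tamoxifen replicate 1 (0.049), and that of Atf6 ran from -0.037 to 0.020 and changed sign without tamoxifen replicate 3 (0.020) or control replicate 3 (0.0056). No other gene chosen by the rule for genes given in full changed sign. Same-numbered libraries did not deviate together (correlations -0.134 to 0.177), so the numbers were not taken as pairs. The cause of these shifts was not tested. With 3 libraries a group, fold changes up to 2.57 in single genes did not pass the edgeR test between tamoxifen and control.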
